A study of Mus musculus with 14 samples.

Results

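The regions described here were 1725 of the 3433 places in the mouse genome that the authors listed as carrying H3K27me3 in hearts at 68 weeks of age and not at 12 weeks, and to which they linked no gene. A region was taken when the gene identifier was missing in every row of its name, which left 1708 regions with a linked gene. The list was compiled from 2 H3K27me3 libraries and 1 input library of hearts of male wild-type C57BL/6 mice on standard chow at 68 weeks, and a second list of 1164 regions from the same numbers of libraries at 12 weeks. The marked chromatin was obtained by CUT&RUN, in which an antibody directs a nuclease to cut out the DNA it is bound to, from powdered heart tissue lightly fixed with formaldehyde. RNA-seq libraries, 4 at each age, were made from total heart RNA of mice with the same labels. A powdered heart holds many cell types, so a mark in more cells and more mark per cell cannot be told apart.

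H3K27me3 is trimethylation of lysine 27 of histone H3, placed by Polycomb repressive complex PRC2, whose catalytic subunits are EZH1 and EZH2, and removed by the demethylases KDM6A and KDM6B. It is known for keeping developmental regulator genes silent in cell types that do not use them, and in many tissues it lies over wide domains that include promoters and the DNA between genes. DNA between genes also holds enhancers, transcripts without annotation and repeated sequence, and a region with no linked gene may lie in any of these.

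Each region had 1 position, 1 width and 1 score, which the authors call enrichment and whose scale is not stated. The lists hold no value for a single library, so no replicate error, interval or test could be given for any region, and the depth behind the scores is unknown. Every comparison of region sets below is a description. Positions are printed as the list gives them, without a genome build, because the authors' linked genes lay nearest to their regions in 20.8% of 1743 links when placed by the gene positions of the count tables, against the 80% set for accepting a shared build. Distances from regions to gene starts were therefore not computed. The offset between regions and linked gene starts had the same sign in both ages on 17 of 17 chromosomes with at least 10 links in each list, and the positions of the 2 lists were compared with each other directly.

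Regions without a linked gene lay on all 19 autosomes and on chromosome X. They made up 50.2% of the 68-week list and 42.5% of the 12-week list (495 of 1164 regions). Chromosome 4 held the most, 140, followed by chromosome 2 with 138, chromosome 5 with 128, chromosome 7 with 124 and chromosome 8 with 118. Relative to regions with a linked gene they were most frequent on chromosome 12, at 86 of 141 regions (61.0%), and chromosome 13, at 96 of 158 (60.8%). They were least frequent on chromosome 7, at 124 of 322 (38.5%). They outnumbered regions with a linked gene on 8 chromosomes, were outnumbered on 11 and were equal in number on chromosome 14, at 64 each. Chromosome X held 3, at 56549774 to 56549987, 102055158 to 102055432 and 136006401 to 136006642, with enrichment of 5.83, 4.54 and 5.82. The share without a linked gene was higher at 68 than at 12 weeks on 14 of 19 autosomes, with the 12-week shares resting on as few as 16 regions, on chromosome 16.

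**Figure D1:**
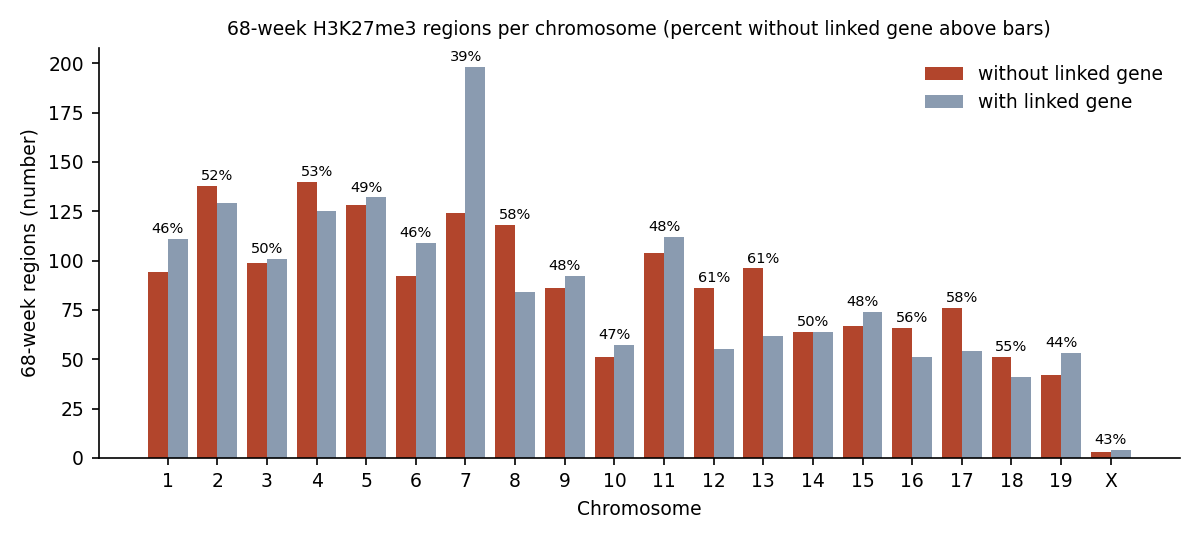
Number of 68-week H3K27me3 regions on each chromosome (horizontal axis), with bars for regions without and with a linked gene and the percent without one printed above. Chromosomes 12 and 13 have the highest percent (61.0% and 60.8%) and chromosome 7 has the lowest among autosomes (38.5%).

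The regions were narrow. Their median width was 267 bases, with quartiles of 225 and 337 bases, and 63.4% were at most 300 bases wide. No region in either list was under 201 bases, and 25 regions without a linked gene had exactly that width. Of the 1725, 92 (5.33%) were wider than 500 bases and 6 were wider than 1000 bases. Together they covered 521 kb. Regions with a linked gene had a median of 266.5 bases with quartiles of 226 and 335 bases, and 12-week regions without a linked gene had a median of 265 bases, so the medians differed by at most 2 bases. The median over single autosomes ran from 248 bases on chromosome 11 to 294 bases on chromosome 8.

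All 5 of the widest regions lay on chromosome 8. The widest, at 20003563 to 20005450, measured 1888 bases with an enrichment of 8.89, and the next, 0.957 kb further on at 20006408 to 20007757, measured 1350 bases with an enrichment of 6.46. Regions at 21082362 to 21083575 and at 20687892 to 20689065 measured 1214 and 1174 bases. These 4 belonged to a single cluster that is described below. The remaining one, at 72611445 to 72612636, measured 1192 bases with an enrichment of 4.97 and lay 0.272 kb from a region linked to the predicted gene Gm5373. Among the 25 regions of 201 bases, the highest scores were 8.26 on chromosome 10 (92580101 to 92580301), 7.80 on chromosome 2 (180063805 to 180064005) and 7.70 on chromosome 1 (90559606 to 90559806), so a high score was also seen at the smallest width.

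Enrichment of the regions had a median of 4.82, with quartiles of 4.16 and 5.78, and ran from 3.17 to 16.2. Of the 1725, 21 (1.22%) scored over 10 and 324 (18.8%) scored under 4. Regions with a linked gene had a median of 4.72, quartiles of 4.10 and 5.72 and a maximum of 26.7, and 27 of them (1.58%) scored over 10. Among the 50 highest scores of the whole 68-week list 21 belonged to regions without a linked gene, and among the 50 widest regions 29 did. Wider regions scored slightly higher: the median width was 256 bases in the 432 regions with the lowest scores and 274 bases in the 431 with the highest. The share wider than 500 bases was 1.39% in the former and 8.82% in the latter. Across the regions Spearman's rho between width and score was 0.11, which is weak, and both values come from the same signal.

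**Figure D2:**
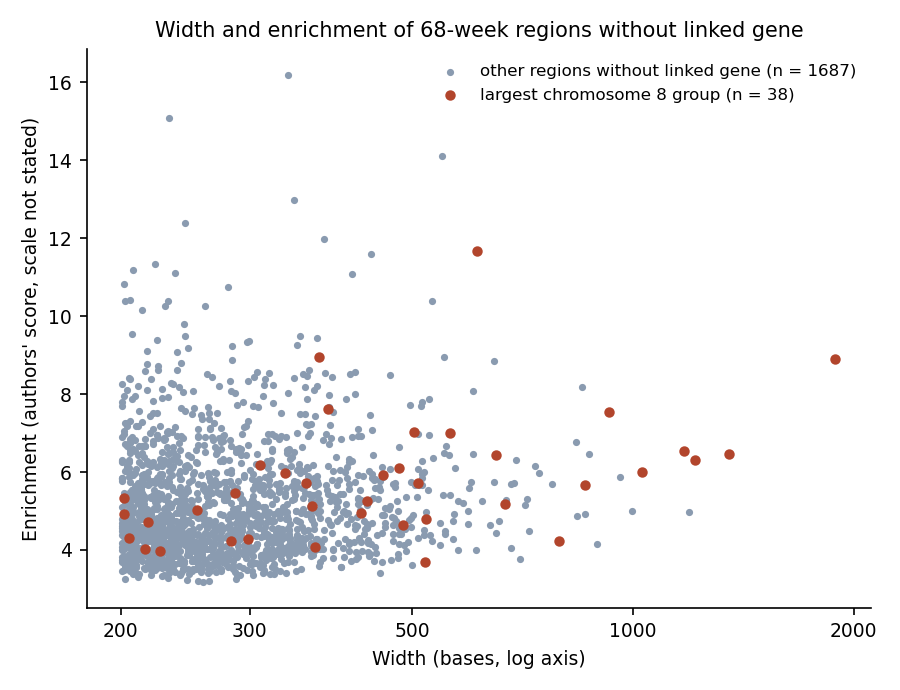
Width in bases (log axis) against the authors' enrichment score for the 1725 regions at 68 weeks without a linked gene, 1 point per region, with the 38 members of the largest chromosome 8 group in red. Most points lie between 201 and 500 bases and between 3.17 and 8, and 5 of the 6 regions wider than 1000 bases are members of that group.

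The 8 regions with the highest enrichment fell on 7 chromosomes and in different surroundings. The highest score, 16.2, was on chromosome 15 at 43060024 to 43060361, and no other listed region of this age lay within 3.37 Mb of it. The second, 15.1, was on chromosome 17 at 37548503 to 37548735, and lay 4.93 kb from a region linked to the olfactory receptor gene Olfr97. The third, 14.1, was on chromosome 1 at 72577963 to 72578510, and 128 bases from it lay another region without a linked gene of 490 bases and a score of 5.37. The fourth, 13.0, at 172596735 to 172597079 on chromosome 2, had 14 other regions without a linked gene within 1 Mb, 4 of them within 10 kb. The nearest regions with a linked gene on either side of it were 197 and 174 kb away. The former was linked to the transcription factor gene Tfap2c and the latter to Bmp7, which encodes a bone morphogenetic protein. These are distances between regions, and distances to the genes were not computed.

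The fifth to eighth scores were 12.4 on chromosome 14 (71028636 to 71028880), 12.0 on chromosome 17 (12858130 to 12858508), 11.7 on chromosome 8 (20008411 to 20009023) and 11.6 on chromosome 13 (57081963 to 57082401). Of these, the chromosome 8 region had 25 others without a linked gene within 1 Mb and the other 3 had 2 each. The chromosome 13 region lay 83.5 kb from a region linked to Trpc7, which encodes a cation channel. High scores therefore occurred both inside clusters and in near isolation. The nearest other region without a linked gene scored between 3.50 and 6.99 in all 8 cases, at gaps from 0.128 to 3433.6 kb. Because the 8 were picked as the highest scores, lower scores beside them were likely in advance. Whether scores of neighbours go together was not tested. The lowest score of all, 3.17, was on chromosome 19 at 44861090 to 44861348, 63.4 kb from a region linked to Pax2, a developmental transcription factor gene.

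Regions without a linked gene lay close to each other. The median gap from such a region to the nearest other one was 33.0 kb, and the median gap to the nearest region with a linked gene was 259 kb. Within 10 kb, 638 of the 1725 (37.0%) had another region without a linked gene and 99 (5.74%) had a region with one. Regions with a linked gene showed the mirror image, with a median gap of 43.2 kb to their own kind and 282 kb to the other. Along the chromosomes a region without a linked gene was followed by another in 1101 of 1715 cases (64.2%), whereas a region with a linked gene was followed by one without in 610 of 1698 (35.9%). No source used here states the rule by which genes were linked, so this order describes the authors' annotation and was not tested.

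**Figure D3:**
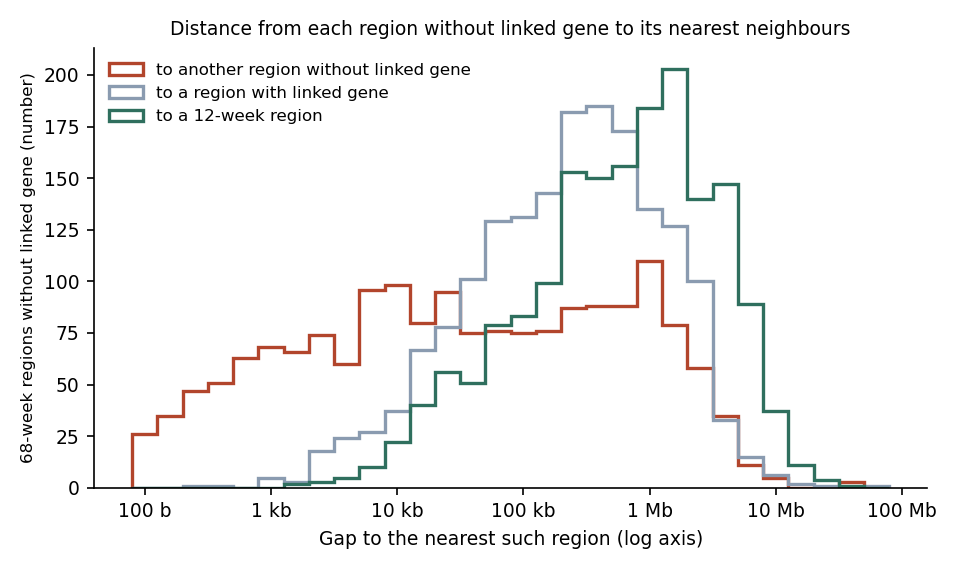
Histogram of the gap (bases, log axis) from each of the 1725 regions to the nearest other region without a linked gene, the nearest 68-week region with one and the nearest 12-week region of any kind. The medians are 33.0 kb, 259 kb and 715 kb.

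Joining regions at most 1 Mb apart gave 565 groups, of which 240 were single regions, and put 86.1% of the regions in a group of at least 2. At 100 kb the share was 61.4% and at 10 kb it was 37.0%. Regions with a linked gene had close shares, 85.5% at 1 Mb, 59.7% at 100 kb and 33.2% at 10 kb. At 1 Mb, 26 groups had 10 or more members and held 394 regions, against 27 groups and 405 regions among those with a linked gene. The largest group had 38 members at 1 Mb and 12 at 10 kb, against 37 and 21 among regions with a linked gene. Grouping at 1 Mb was thus not particular to regions without a linked gene. At 10 kb, 17 groups had 5 or more members and held 112 regions, against 11 groups and 78 regions among those with a linked gene. Members of the 10-kb groups of 5 or more were wider than lone regions, with medians of 340 and 259 bases, and 21.4% against 3.31% of them exceeded 500 bases. Their median enrichment was 4.95, against 4.85 in the 1087 lone regions. Without the largest group, which is described below, the 84 members left in such groups had a median width of 322.5 bases and a median score of 4.77, and 11.9% exceeded 500 bases.

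The largest group lay on chromosome 8 between 19016218 and 21083942. It held 38 regions without a linked gene and 2 with one, linked to the predicted gene Gm39139 and to Potefam3e, a member of a multi-copy family of ankyrin-domain genes. The last 37 of the 38 followed one another with no linked region between them, the longest such run in the list. The next longest runs were of 16, among them runs on chromosomes 3, 5, 7, 13 and 17. The 38 regions had a median width of 444.5 bases and a median score of 5.57, against 265 bases and 4.80 in the other 1687, and 16 of the 38 (42.1%) exceeded 500 bases, against 4.51% of the others. Spaced apart by over 100 kb, the members fell into 6 blocks of 1, 5, 11, 3, 6 and 12 regions. The block of 11, at 20002169 to 20138010, held the widest region and the score of 11.7. The block of 6 spanned 8.06 kb at 20682030 to 20690084, and its regions covered 53.1% of that span.

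The block of 12 regions spanned 14.5 kb at 21069480 to 21083942 and had the most members of any 10-kb group of regions without a linked gene. Its widths ran from 202 to 1214 bases and its scores from 3.96 to 7.62, and the regions covered 47.4% of the span with a median gap of 257 bases. No source used here says how reads matching several places were treated, so values in multi-copy DNA are uncertain.

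The groups next in number of members at 10 kb were on other chromosomes. On chromosome 3, 11 regions lay within 18.7 kb at 157208177 to 157226860, with scores from 3.66 to 8.49, and the nearest linked region, 48.3 kb away, was that of Ptger3, a prostaglandin E2 receptor gene. On chromosome 4, 10 regions lay within 21.4 kb at 21696166 to 21717555, with scores from 3.81 to 5.87. On chromosome 7, 9 regions lay within 15.2 kb at 39309075 to 39324243, with scores from 3.87 to 8.54. The median step from one region's start to the next was 1158, 1244.5, 1508 and 1276.5 bases in the groups on chromosomes 8, 3, 4 and 7. In these 4 groups 0 regions with a linked gene lay between the first and the last member.

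**Figure D4:**
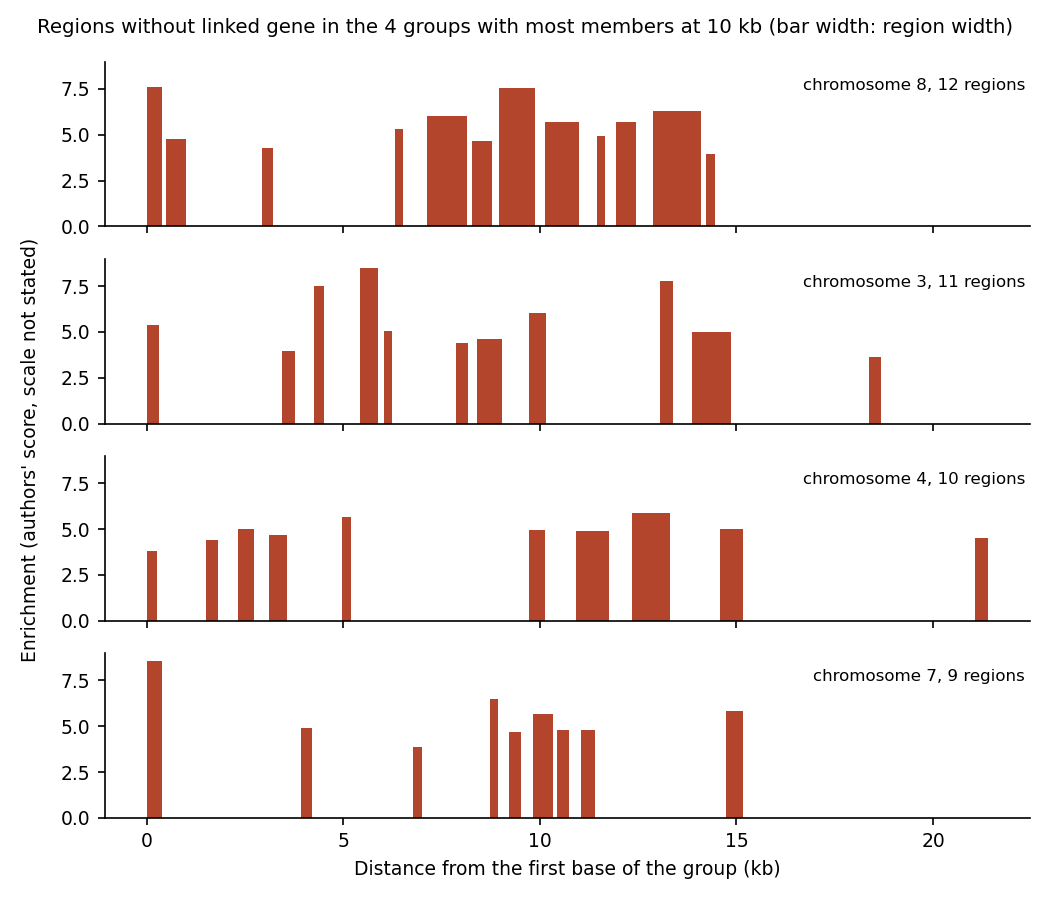
Regions without a linked gene in the 4 groups with the most members at a joining distance of 10 kb, drawn as distance in kb from the group's first base, with bar width equal to region width and bar height equal to the enrichment score. The chromosome 8 group has the widest bars (up to 1214 bases) and covers 47.4% of its span, against 24.5%, 22.4% and 19.9% on chromosomes 3, 4 and 7.

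Other large groups at 1 Mb had linked regions inside them. On chromosome 13, 21 regions lay at 120276717 to 120773368 among 4 regions linked to AF067063, Tcstv1 and B020031M17Rik, of which Tcstv1 is known for its transcripts in the early embryo. On chromosome 7, 18 regions lay at 43251515 to 44220993 among 18 linked ones that included the kallikrein genes Klk1 and Klk4 and the synaptic genes Shank1, Syt3 and Lrrc4b. Of groups with at least 3 members at 1 Mb, those with the smallest median gaps were 3 regions on chromosome 19 (28744106 to 28745414, 238 bases), 6 on chromosome 8 (71582972 to 71601532, 255 bases) and 4 on chromosome 5 (28041086 to 28189475, 461 bases). These were small groups, and the group of 6 had its widest region at 670 bases. At the other end, 101 regions had no 68-week region of any kind within 1 Mb, the most isolated being that on chromosome X at 102055158, 34.0 Mb from the next.

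None of the 1725 regions shared a base with a 12-week region, and the region names in both lists carry the word unique. Lists of regions unique to an age share none by the way they are made, so this is not a result. The gaps below are likewise between lists without shared regions. The nearest 12-week region was at a median of 715 kb, and 30 regions (1.74%) had one within 10 kb and 303 (17.6%) within 100 kb. For 68-week regions with a linked gene the median was 572 kb, and 3.04% had one within 10 kb. The closest approach was on chromosome 5, where a region at 101671065 to 101671415 with a score of 9.49 lay 1936 bases from a 12-week region at 101673352 to 101673613 with a score of 4.94, also without a linked gene. On chromosome 11 a 12-week region at 108927175 to 108927397 had a 68-week region on either side, 1946 and 2889 bases away, where the nearer scored 4.396 and the other 4.15. At these places regions of both ages lay side by side. Among 12-week regions without a linked gene the median score was 4.49 and the median gap between successive ones 928 kb, against 258 kb at 68 weeks, where the list was longer. The 12-week scores reached 535, on chromosome 9 at 3000269 to 3000640. The scores of the 2 lists may not share a scale.

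To name genes near the regions, the regions with a linked gene were used as landmarks, since their positions are on the same coordinates. For each region without a linked gene the nearest linked region was taken, and its genes were called neighbours if it lay within 100 kb, which held for 553 of the 1725 (32.1%). This gave 347 neighbour genes, of which 320 were in the count tables. Most neighbour genes had few regions beside them, and the list was headed by B020031M17Rik and Ptger3 with 12 each, Siglece, a sialic acid receptor gene of myeloid cells, and Pax7, a transcription factor gene of muscle stem cells, with 7 each, and Ptprf, a receptor phosphatase gene, with 6. The 7 regions beside Pax7 lay at 139421718 to 139460949 on chromosome 4, 32.3 to 71.3 kb from its linked region, with scores from 3.59 to 5.95. Runx3, a transcription factor gene, had 4, the nearest 3.54 kb from its linked region.

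Genes of the listed transcription factor families numbered 8 among the 347 (2.31%), namely Foxi3, Foxn4, Foxp4, Pax2, Pax5, Pax7, Sox11 and Tbx4, and 11 among the 927 other linked genes (1.19%). Tbx4, a regulator of hindlimb and lung development, had 2 regions beside it, 34.3 and 43.6 kb from its linked region. Sox11, a gene of neural development, had 1 at 5.77 kb from its own linked region. Genes with names of the listed adhesion, synapse and channel families numbered 16 (4.61%), against 22 (2.37%) of the others. They included the glutamate receptor genes Grid1, Grik3, Grik4, Grm4 and Grm8, the neurexin gene Nrxn2, the semaphorin genes Sema4a and Sema4f and the potassium channel genes Kcne1, Kcng1 and Kcnj10. These counts are small and were not tested.

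Of the 320 neighbour genes in the count tables, 63 (19.7%) had no read in any of the 8 libraries and 88 (27.5%) had a mean of at least 1 CPM, counts scaled to a common library total. Of all 49315 genes, 37.7% had no read and 27.4% reached 1 CPM, and of the other linked genes 13.3% had no read and 38.4% reached 1 CPM. The share of neighbour genes at 1 CPM was thus close to that of all genes and below that of the other linked genes, with no test made. Pax7 had 2 reads over the 8 libraries, Tfap2c 2, Trpc7 1, and B020031M17Rik and Olfr97 0. Ptger3, Siglece and Ptprf had means of 3.35, 1.79 and 26.1 CPM at 12 weeks and of 1.44, 1.12 and 16.6 CPM at 68 weeks. Their log2 fold changes of -1.22, -0.66 and -0.66 did not pass by edgeR (adjusted p = 0.124, 0.140 and 0.109). DESeq2 called Ptger3 and Ptprf lower (adjusted p = 0.028 and 0.014). Runx3 had a log2 fold change of 0.16 and did not pass. The 6 neighbour genes with the highest mean CPM were Dsp, Smyd1, Speg, Usp13, C3 and Ank1. Dsp, which encodes desmoplakin of the junctions between heart muscle cells, stood at 1630, 1693, 1720 and 1750 CPM at 12 weeks and at 1994, 2222, 1841 and 1810 CPM at 68 weeks. These values did not overlap between ages, but the difference did not pass the test (log2 fold change 0.21 ± 0.070, adjusted p = 0.142, edgeR). Smyd1, a muscle methyltransferase gene, Speg, a muscle kinase gene, and Ank1, an ankyrin gene, had 0.13 ± 0.060, 0.19 ± 0.059 and 0.32 ± 0.088 as log2 fold change ± SE, and none passed by edgeR. DESeq2 called Dsp, Speg and Ank1 higher (adjusted p = 0.0410, 0.0216 and 0.0113) and not Smyd1, in a fit that called 6.60% of all genes tested.

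Of 121 neighbour genes tested, 2 were higher and 4 were lower at 68 than at 12 weeks by edgeR, or 4.96%, against 2.83% of all 15947 genes tested (1.61% higher and 1.22% lower) and 5.58% of the 430 other linked genes tested. The median log2 fold change was -0.02 in the neighbour genes and -0.01 in all genes. A handful of calls is all that sets these shares apart, and in the other fits of the same genes they numbered from 2 to 11.

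Slc38a1, which encodes a glutamine carrier, fell from 32.7, 33.4, 41.6 and 45.0 CPM at 12 weeks to 17.5, 9.52, 16.7 and 14.5 CPM at 68 weeks. Every 68-week library lay below every 12-week one, the log2 fold change was -1.39 ± 0.18 (adjusted p = 0.0068, edgeR), and the call held in all 13 other fits. The region beside it, on chromosome 15 at 96559094 to 96559368, was 275 bases wide with a score of 3.78 and lay 19.8 kb from the region linked to Slc38a1. Pax5, a B cell regulator gene, fell from 1.06, 2.08, 2.63 and 0.83 CPM to 0.36, 0.25, 0.32 and 0.33 CPM (log2 fold change -2.35 ± 0.39, adjusted p = 0.0181, edgeR). Its region lay on chromosome 4 at 44736057 to 44736353, with a score of 3.49. Both regions scored below the median of 4.82.

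Ntrk3, a neurotrophin receptor gene, stood at 10.5, 7.36, 5.42 and 7.55 CPM at 12 weeks and at 3.54, 3.64, 4.29 and 2.20 CPM at 68 weeks, without overlap (log2 fold change -1.18 ± 0.23, adjusted p = 0.0333, edgeR). Its region, on chromosome 7 at 78404324 to 78404612, scored 4.96. Kcne1, a potassium channel subunit gene, stood at 3.36, 6.07, 3.62 and 3.39 CPM and at 2.55, 1.87, 2.03 and 2.05 CPM (log2 fold change -0.95 ± 0.21, adjusted p = 0.0498, edgeR). The wider region beside it, 546 bases on chromosome 16 at 92052613 to 92053158, scored 4.70.

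Of the genes that rose, Adgrb1, an adhesion receptor gene, went from 0.44, 0.29, 0.39 and 0.14 CPM at 12 weeks to 1.26, 0.87, 1.10 and 1.19 CPM at 68 weeks (log2 fold change 1.79 ± 0.31, adjusted p = 0.0194, edgeR). Ostm1, which encodes a lysosomal membrane protein, went from 31.5, 35.9, 33.3 and 31.3 CPM to 37.9, 42.9, 41.4 and 42.2 CPM (log2 fold change 0.32 ± 0.059, adjusted p = 0.0285, edgeR). The regions beside them scored 3.68 and 3.89, on chromosome 15 at 74469111 to 74469378 and on chromosome 10 at 42435871 to 42436184. The 6 called neighbour genes thus comprised 2 higher and 4 lower, and the regions lay 11.7 to 94.9 kb from the region linked to the gene. Each of these genes was itself linked to another 68-week region. Any relation between the regions without a linked gene and RNA was not tested.

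**Figure D5:**
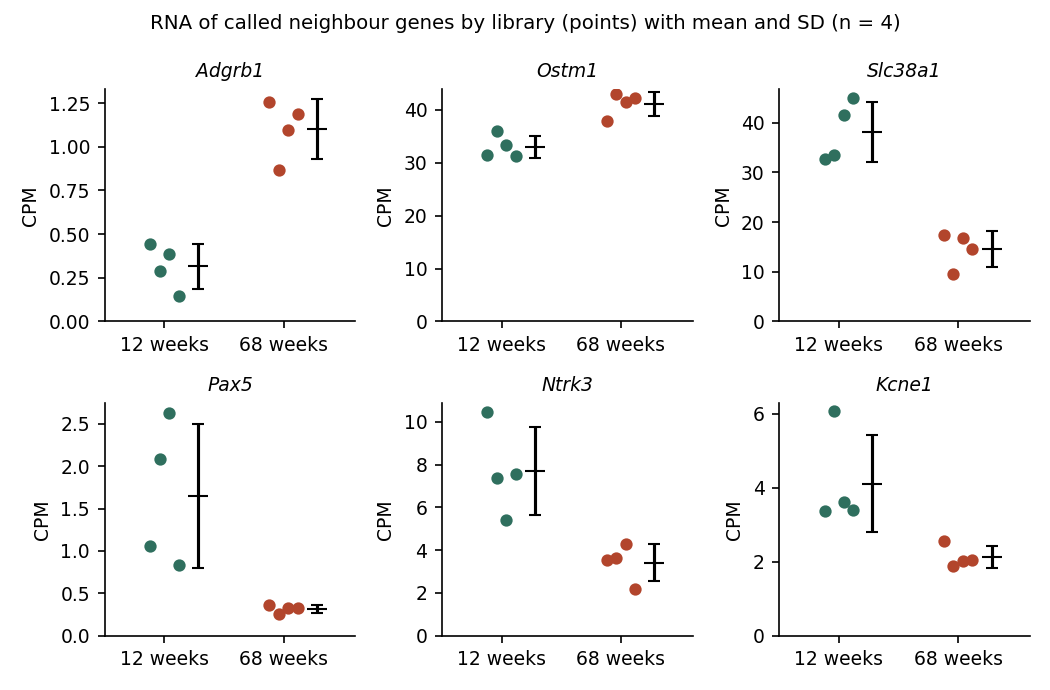
CPM in each RNA library (points, 4 at 12 weeks and 4 at 68 weeks) of the 6 called genes whose linked region lies within 100 kb of a region without a linked gene, with mean and SD (bars). The ages do not overlap in any of the 6, but the 6 were called from these same libraries, so this is no further result. Genes that edgeR did not call, such as Dsp, do not overlap either. Slc38a1 falls from 32.7 or more to 17.5 or less.

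Except for that of Slc38a1, each of these calls was lost without some single library. Leaving out 1 library ended the call of Adgrb1 in 3 of 8 cases (12-week replicate 2 and 68-week replicates 1 and 4, log2 fold changes of 1.74, 1.72 and 1.75), of Pax5 in 3 (12-week replicate 2 and 68-week replicates 2 and 4, -2.21, -2.26 and -2.36), of Ostm1 in 6 (all but 12-week replicate 2 and 68-week replicate 1, with values from 0.29 to 0.36 over the 8), of Ntrk3 in 6 (all but 12-week replicate 3 and 68-week replicate 3, -1.31 to -0.99) and of Kcne1 in 8 (-1.05 to -0.70, nearest to 0 without 12-week replicate 2). Of the lists of other cell types, 20 airway epithelium markers summed to between 69.9 and 1841 CPM at 12 weeks and between 21.6 and 1109 CPM at 68 weeks. Of the 19 tested 0 were called by edgeR (3 at an unadjusted p under 0.05) and 0 by DESeq2, and up to 9 of the 20 were at 0 in a library. For the model, the normalized CPM of the 19 tested airway markers were summed, and log2 of 1 plus that sum was added. In that fit Pax5 (-2.06, adjusted p = 0.129, edgeR), Ntrk3 (-0.97, 0.161), Kcne1 (-0.88, 0.228) and Ostm1 (0.34, 0.101) were not called. The 8 adipocyte markers summed to 320 to 706 CPM at 12 weeks and 40.4 to 182 CPM at 68 weeks, with 4 called lower, none at 0 in any library, and their part in these changes was not tested. The 10 cardiomyocyte markers summed to 59336 to 71838 CPM over the 8 libraries, with 0 called by edgeR (4 at an unadjusted p under 0.05) and 2 higher by DESeq2.

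Of 14 genes that write or remove H3K27me3, edgeR called 0 higher and 1 lower, Uty, a Y-linked relative of Kdm6a, at a log2 fold change of -0.18 ± 0.040 (adjusted p = 0.0491). Over all genes tested 2.83% were called and 1.22% were lower, and 1 of 14 is too few to set beside these shares. The values of Uty were 34.9, 34.3, 32.6 and 34.5 CPM at 12 weeks and 30.2, 29.7, 29.7 and 30.6 CPM at 68 weeks. Of the 14, 3 (Ezh1, Phf19 and Uty) had an unadjusted p under 0.05, and DESeq2 called 0 higher and 1 lower. The call of Uty was lost without any 1 of the 8 libraries (-0.20 to -0.17, adjusted p from 0.0592 to 0.129, edgeR) and with the airway sum in the model (adjusted p = 0.203). The other 13 had log2 fold changes between -0.25 (Ezh2) and 0.41 (Phf19) and did not pass the test.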

How the data were processed

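H3K27me3 regions and RNA were measured in hearts of male mice at 12 and 68 weeks. The authors deposited, for each age, a region list with an enrichment score of unstated scale and a width for each region. Per the file headers these have 1 value per region, and per the labels they were compiled from 2 H3K27me3 libraries and 1 input library. The submitters' processing notes list Bowtie2 2.4.2 and MACS3 3.0.0b1 without a role and name mm10 for the series. The deposited RNA values are raw counts per gene, per the file headers; STAR 2.5.2b and Subread 1.5.2 are in the submitters' processing notes. How replicates were combined, how genes were linked and whether counting used strand are not given in the sources used here.

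Regions were reduced to 1 per name, and gaps are the bases between 2 regions. Analyses used Python 3.11.15, and interval code was tested on simulated regions. The planned genes on either side could not be taken, since the build check failed. Neighbours through linked regions, at 100 kb, were chosen after seeing the data. Genes were tested in R 4.3.3 with edgeR 4.0.16 (quasi-likelihood, TMM, filterByExpr, age alone, Benjamini-Hochberg over 15947 genes, threshold 0.05), checked on simulated counts. The SE was taken from the fitted log2 value and its quasi-likelihood F statistic, as their ratio after a square root of F. CPM use normalized library sizes, except sums of markers, which use total counts of 23599296 to 34599121 per library. The labels do not say that libraries came from separate mice, so the spread behind the p-values may be technical. Libraries differed by more than sampling noise in every pair of 1 age (chi-square per degree of freedom at least 15.7). Alternatives were DESeq2 1.42.0, other scaling, no filter, a replicate block, airway markers in the model and leaving out each library.

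Named regions were the 8 of highest enrichment, the 5 widest, the 3 narrowest (of ties, those with the highest score) and the 3 closest-spaced groups; named genes were called neighbours, the 6 neighbours with the highest CPM, and a fixed list of 14. The members of the largest groups and other neighbour genes were named after their values were seen. The regions and lists were chosen with earlier results of these data known.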

Additional observations from a re-analysis of the deposited data

Results flagged for a closer look

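Among 74 sets of 4 libraries examined, covering the tested genes named here at each age, 7 had 1 library far from the other 3, where chance gives about 1 in 20 sets. Kcne1 stood at 6.07 CPM in 12-week replicate 2, against 3.36 to 3.62 in the others of that age. Smyd1 stood at 522.6 CPM in 12-week replicate 1, against 587 to 598, and at 673 CPM in 68-week replicate 4, against 612 to 620. Aebp2, a PRC2 cofactor gene, stood at 47.1 CPM in 12-week replicate 2, against 48.7 to 48.8, and Kdm6a at 21.98 CPM in the same library, against 25.5 to 26.0. Siglece stood at 2.41 CPM in 12-week replicate 3, against 1.502 to 1.625. Atp7b, a copper transporter gene and the next linked gene after the largest chromosome 8 group, stood at 2.61 CPM in 68-week replicate 3, against 0 to 0.20 in the other 3; the airway markers summed to 1109 CPM in that library, against 21.6 to 34.9 in those.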

How the results depend on the processing

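The number of regions without a linked gene was 1725 whether a gene was missing in any or in all rows of a region, and whether regions were counted by name or by position. Keeping regions at or above the median score of the whole list gave a median width of 277 bases and a median score of 5.75, and leaving out the largest chromosome 8 group, an alternative chosen after seeing the data, gave 265 bases and 4.80. The share of regions in groups was 61.4% at 100 kb, 98.9% at 5 Mb and, as a distance added later, 37.0% at 10 kb. The gap to the nearest region of any kind at 68 weeks had a median of 19.8 kb. Counting a 12-week region within 10 kb as shared gave 30 regions. The build check gave 38.6% with genes of 10 or more reads, 21.7% by gene body and, as a check added later, 98.2% for a gene start within 1 Mb.

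Neighbour genes called higher and lower numbered 1 and 2 with airway markers in the model, namely Adgrb1 (1.98), Slc38a1 (-1.39) and Muc5b (-1.23). Muc5b is itself 1 of the 20 airway markers, so its call is not independent of that model. With a replicate block the calls numbered 1 and 1, namely Cacna2d2 (0.87) and Slc38a1 (-1.41). DESeq2 called 5 higher and 6 lower. These were the genes called by edgeR and also Dsp, Speg and Ank1 (higher) and Ptger3 and Ptprf (lower). Leaving out 1 library gave 1 higher in each case and 1 to 4 lower. Muc5b (-6.49) was among the 4 lower without 68-week replicate 3. By edgeR, neighbours within 10 kb, 30 genes, gave 0 higher and 0 lower (7 at an unadjusted p under 0.05, and 1 higher and 0 lower by DESeq2), and those within 1 Mb, 258 genes, gave 8 higher and 6 lower, both distances chosen after seeing the data. Over all genes tested, the main edgeR fit called 451 (2.83%), which is the share to set beside its 10-kb and 1-Mb counts. The other fits called 160 (1.00%) with the block, 96 (0.60%) with airway markers, 1012 (6.60%) by DESeq2 and 171 to 334 (1.05% to 2.05%) without 1 library. The cause of these differences was not tested. Replicate numbers did not pair the samples: deviations of same-numbered libraries correlated at -0.18 to 0.19, and 0 of 4 correlated best with their own number. With the block the calls of Adgrb1, Ostm1, Pax5, Ntrk3, Kcne1 and Uty were not made (adjusted p = 0.0616, 0.0539, 0.0556, 0.0856, 0.129 and 0.142, edgeR). Without the filter Uty was not called either (adjusted p = 0.152). The planned distances to gene starts were not run.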
